A study of Mus musculus with 7 samples.

Results

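The constitutive vitamin D receptor (VDR) regions described here carried a VDR peak in every VDR library, after vehicle and after added hormone. They also lay more than 1 kb and at most 100 kb from the nearest annotated start of a protein-coding gene in the mouse genome. They were chosen by merging the peaks of 6 libraries on chromosomes 1 to 19 and X wherever they overlapped by at least 1 bp, and by keeping the merged regions that met both conditions. This gave 3444 regions of 86995 (3.96%), and 79.3% of the 4345 regions present in all 6 libraries. Without vehicle library 1, which had the fewest peaks, 5456 regions would meet the rule, and with all lists reduced to its length 2178 would. The remaining constitutive regions were 519 within 1 kb of a start and 382 beyond 100 kb.

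The data were VDR chromatin immunoprecipitation sequencing (ChIP-seq) libraries from intestinal epithelial cells, released with EDTA from the duodenum and jejunum. The animals were wild-type mice on a standard chow diet, aged 8 weeks, given either vehicle (3 libraries) or 1,25(OH)2D3 (active vitamin D hormone, 3 libraries) in a dose of 10 ng per g body weight, with tissue taken 1 h later. The antibody was an anti-VDR antibody (Santa Cruz sc-1008), and 1 input library, labelled with the hormone dose, served all 6. Vehicle means that no hormone was added, and the level of the hormone already in these mice is not given. Below, with hormone means with the added dose. Strain and sex are not in the labels. Nor do they say which libraries are separate mice, and p-values may therefore reflect technical spread alone. Expression was not measured, and the cell type could not be checked against its markers.

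VDR is a nuclear receptor that binds DNA as a pair with a retinoid X receptor (RXR). The pair recognises a repeat of a hexamer half-site in the same orientation with a spacer of 3 bases, called DR3. In the intestine the receptor is known for control of calcium and phosphate absorption, for induction of the enzyme that breaks the hormone down (Cyp24a1), and for acting through elements far from the promoters of its target genes.

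The elements below are shown because they lie in the regions that stood first in the 6 peak lists, or near genes of calcium and vitamin D handling. Capitals mark both half-sites and lower case marks the spacer. Each is read 5′ to 3′ on the strand given, on build mm9, and is named by the protein-coding gene with the nearest start. That gene is a label of position and was not shown to respond. The first 6 match the half-site pattern fully and the other 5 carry 1 mismatch.
Pip5k1b, chr19:24591731-24591745, minus strand: AGGTCAtcaGGTTCA
Gm7589, chr9:59001838-59001852, minus strand: AGTTCAcagGGTTCA
Asap1, chr15:64162693-64162707, minus strand: AGGTCAtggGGTTCA
Trp53inp1, chr4:11075211-11075225, minus strand: AGGTCAgcgAGTTCA
Kl, chr5:151719822-151719836, plus strand: AGGTCAgagAGTTCA
Nrip1, chr16:76225579-76225593, minus strand: AGTTCAcagAGTTCA
Slc37a2, chr9:37054091-37054105, plus strand: GGGTCAgcgGGTTCT
Tlcd2, chr11:75274037-75274051, plus strand: AAGTCAttgGGTTCA
Akp3, chr1:89018807-89018821, minus strand: GGGTGGttgGGTTCA
Trpv6, chr6:41588319-41588333, plus strand: GGGTCAgtgAGTTCG
Vdr, chr15:97734038-97734052, minus strand: AGGTGAacaGGTTAA

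The next sequences show 200 bases around the centre of 3 regions in which such an element lies, with the half-sites of the best element in capitals. The Slc30a10 and Bcas1 regions each hold 2 matches with at most 1 mismatch, of which 1 is marked. The Slc30a10 region stood first of all members, the Pip5k1b region was the highest with a full match, and the Bcas1 region lies downstream of Cyp24a1.
Slc30a10, chr1:187326535-187326734, plus strand: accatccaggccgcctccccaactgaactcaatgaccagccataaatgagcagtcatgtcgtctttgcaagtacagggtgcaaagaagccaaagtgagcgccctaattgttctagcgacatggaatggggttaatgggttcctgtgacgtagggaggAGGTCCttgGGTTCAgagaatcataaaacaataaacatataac
Pip5k1b, chr19:24591635-24591834, minus strand: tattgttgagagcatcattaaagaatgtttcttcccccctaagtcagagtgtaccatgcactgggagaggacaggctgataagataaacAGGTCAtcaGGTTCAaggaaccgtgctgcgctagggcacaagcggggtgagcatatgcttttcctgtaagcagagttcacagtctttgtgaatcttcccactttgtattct
Bcas1, chr2:170287209-170287408, minus strand: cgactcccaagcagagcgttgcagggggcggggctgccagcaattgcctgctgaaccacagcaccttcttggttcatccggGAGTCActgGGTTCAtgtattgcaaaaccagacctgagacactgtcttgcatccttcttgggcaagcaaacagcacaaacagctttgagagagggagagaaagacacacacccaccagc

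An element was searched as half-site, 3 free bases, half-site within 100 bp of each region centre (a window of 201 bp), on both strands and with at most 1 mismatch. The half-site could be AGGTCA and its variant AGGTGA, further AGTTCA with its variant AGTTGA, next GGGTCA with variant GGGTGA, or lastly GGTTCA with its variant GGTTGA. A match describes the letters in a window and does not by itself show binding.

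A DR3 element was found in 968 of the 3444 regions, or 28.1% (95% Wilson interval 26.6 to 29.6). The windows 5 kb to the right of the same regions held one in 178 of 3441, or 5.17% (4.48 to 5.96), and a grid of windows over the genome in 3.59%. The share in the constitutive regions was 5.43 times that of the windows beside them. For a full match the counts were 197 regions (5.72%, 4.99 to 6.55) and 6 of the windows beside them (0.174%, 0.0799 to 0.380). Intervals here and below cover counting error only, and regions are not replicates of a condition, so no p-value is attached to shares.

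Distance from a gene start went with little difference in the element. Constitutive regions within 1 kb of a start held a DR3 in 26.8% (23.2 to 30.8) and those beyond 100 kb in 30.1% (25.7 to 34.9), and both intervals overlap that of the regions between 1 and 100 kb. Within the latter, the share was 27.8% at 1 to 5 kb, 30.2% at 5 to 10 kb, 25.8% at 10 to 25 kb, 29.9% at 25 to 50 kb and 28.3% at 50 to 100 kb. The share did not rise or fall steadily with distance. It was 29.3% upstream and 27.0% downstream of the nearest start.

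Regions at the same distance that had peaks only after the added hormone held the element in a smaller share. Of 3424 regions with a peak in all 3 hormone libraries and no vehicle library, 21.0% (19.7 to 22.4) held a DR3 and 3.01% (2.49 to 3.64) a full match, and neither interval overlaps that of the constitutive regions. All 61471 merged regions at 1 to 100 kb had 11.8%. Hormone-only regions also stood much lower in the peak lists, as given further on.

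**Figure D1:**
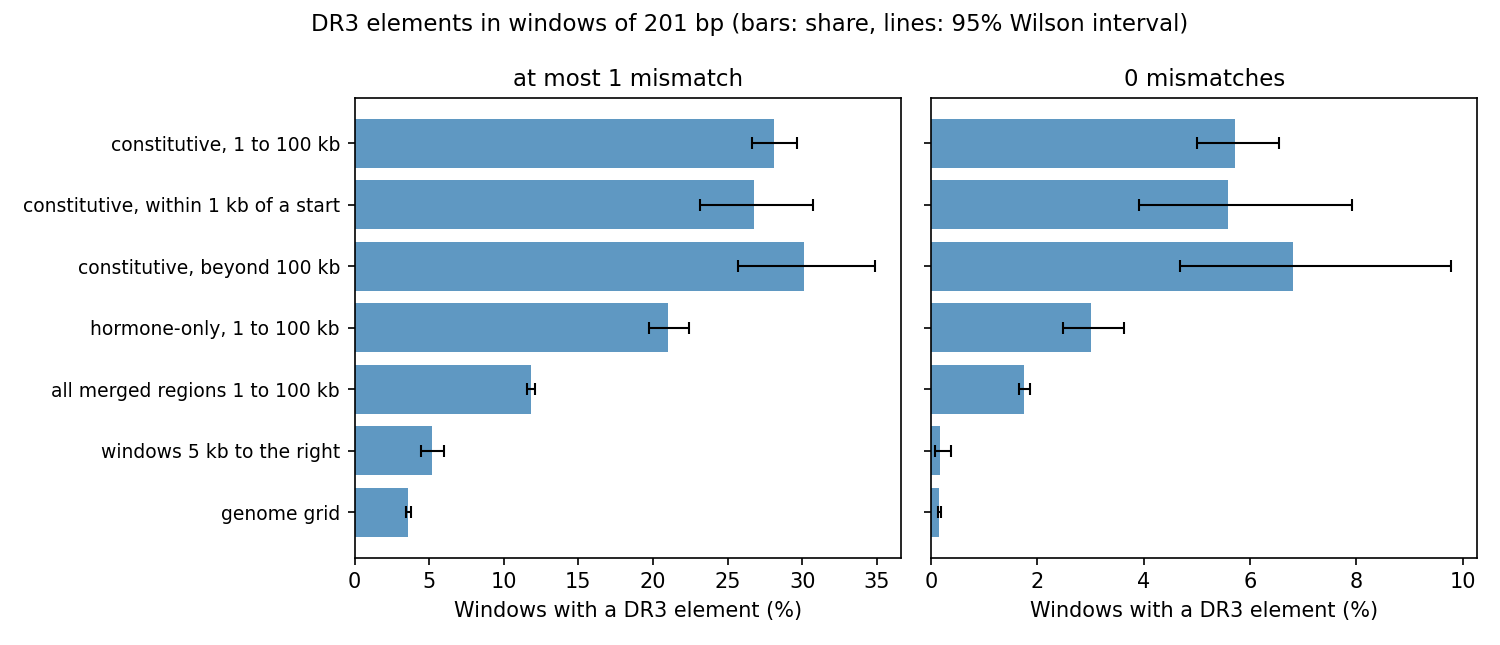
Share of 201 bp windows (%, horizontal axis) with a DR3 element, with at most 1 mismatch on the left and none on the right. Bars are shares and lines are 95% Wilson intervals. The constitutive regions at 1 to 100 kb reached 28.1% and 5.72%, while the windows 5 kb to the right were at 5.17% and 0.174%.

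Other arrangements of the half-site were searched with no mismatch, to see how far the spacer of 3 bases stood apart. DR3 was the most frequent of the 27 arrangements tried, at 5.72% of the constitutive regions. The direct repeat with 4 bases (DR4), known as an element of thyroid hormone and liver X receptors, followed at 2.85% (2.34 to 3.46) against 0.232% in the windows beside them. Direct repeats with 0, 1 and 2 bases were in 1.57%, 1.95% and 2.00%, against 0.465%, 0.436% and 0.465%. Direct repeats with 5, 6, 7 and 8 bases were in 1.51%, 1.05%, 0.784% and 1.10%, against 0.174%, 0.407%, 0.232% and 0.262%. Everted repeats (half-sites facing away from each other) stayed between 0.116% and 0.755% for spacers of 0 to 8 bases, and inverted repeats between 0.174% and 0.552%. In the windows beside them, everted repeats were in 0 to 0.174% and inverted repeats in 0.0291% to 0.232%. At least 1 half-site of any arrangement was in 88.1% of the regions and in 57.9% of the windows beside them, with means of 1.96 and 0.899 per window.

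**Figure D2:**
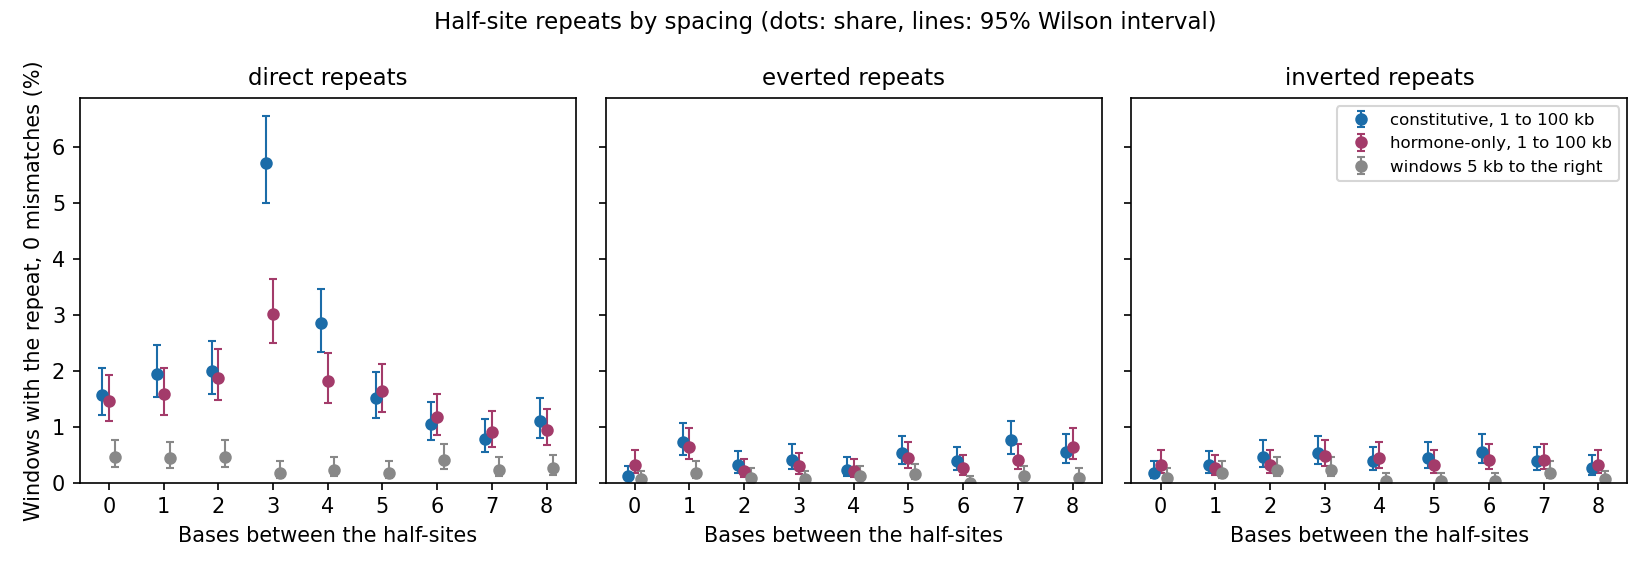
Share of windows (%, vertical axis) with 2 half-sites and no mismatch, by the number of bases between them, for direct, everted and inverted repeats. Dots are shares and lines are 95% Wilson intervals. The direct repeat with 3 bases stands highest in the constitutive regions (5.72%) and in the hormone-only regions (3.01%), and in the windows 5 kb to the right it is at 0.174%.

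The 197 full matches had a bias that the search did not impose. Positions are counted from 1 at the 5′ end of the element, so the spacer is positions 7 to 9. The last spacer base, which was free in the search, was G in 54.3%, A in 27.9%, C in 12.2% and T in 5.58%. The 2 free bases before it were more even, with the most frequent base at 31% and 33%.

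Both half-sites also differed from each other. The first was most often AGGTCA (61 of 197) and then AGTTCA (40), while the second was most often GGTTCA (62) and AGTTCA (58), then AGGTCA (33). The third base of the half-site was thus G in 61.9% of first half-sites and T in 70.1% of second ones. Elements such as those printed for Pip5k1b and Asap1 show both preferences. No single element dominated: AGTTCACAGAGTTCA and AGTTCACAGGGTTCA were each found in 4 regions, the highest count of any. Among the 771 elements with 1 mismatch, the mismatch fell at position 13 in 21.0% and at position 15 in 16.3%, and at positions 1, 10 and 12 in 2.08%, 1.43% and 2.08%. The search accepted a single base at positions 13 and 15 but more than 1 at positions 1, 10 and 12. That by itself makes a mismatch likelier at positions 13 and 15. Positions 4, 6 and 11, which also accepted a single base, had 13.6%, 11.3% and 3.5%.

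The elements lay close to the centres of the regions. The median distance from the region centre to the middle of the best element was 26 bp, and 40.8% of elements were within 20 bp. In the windows 5 kb to the right these values were 46 bp and 19.1%.

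**Figure D3:**
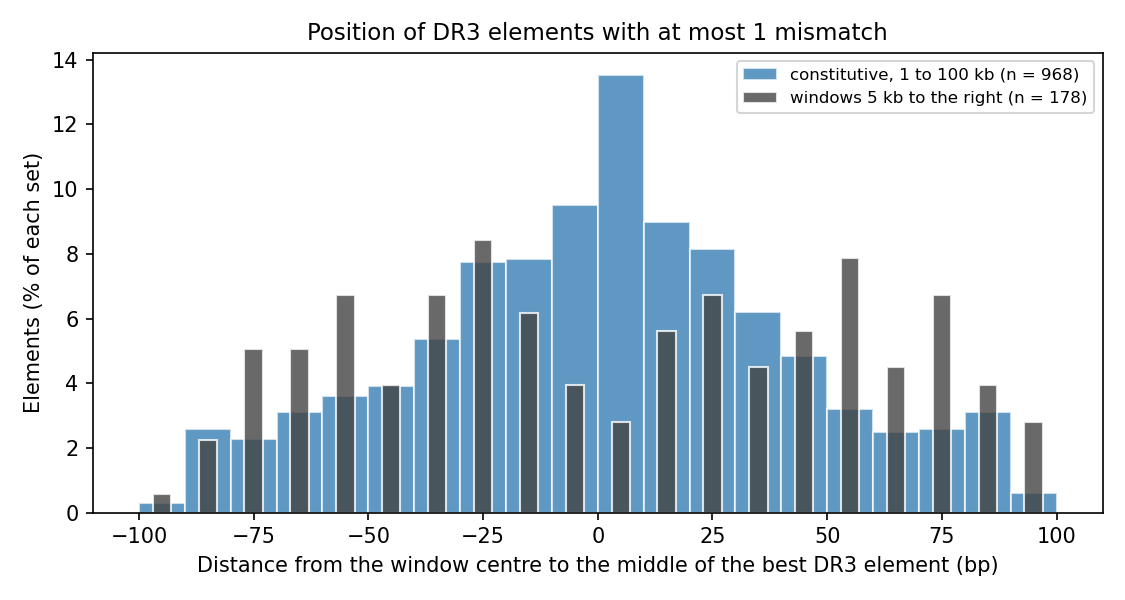
Position of the best DR3 element (at most 1 mismatch) in its window, as the distance in bp from the window centre, with bars giving the percentage of elements in each 10 bp step. Wide bars are the 968 constitutive regions and narrow bars the 178 windows 5 kb to the right. The constitutive regions peak at the centre, with a median distance of 26 bp, and the windows beside them do not, with 46 bp.

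Each library placed its own peak in a region, so the distance could be compared between treatments over libraries. The median distance from the peak centre to the element over the 968 regions was 30, 33 and 33 bp in vehicle libraries 1, 2 and 3. It was 27, 28 and 24 bp in hormone libraries 1, 2 and 3. All 3 hormone libraries were nearer to the element than all 3 vehicle libraries. The means were 26.3 ± 2.08 bp with hormone and 32 ± 1.73 bp with vehicle (SD, n = 3), a difference of -5.67 bp (exact two-sided permutation p = 0.1, the smallest that 3 against 3 allows; 0.1 after adjustment over 2 tests).

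The share of peak centres within 20 bp of the element was 37.7%, 32.9% and 35.2% with vehicle and 41.0%, 41.6% and 45.4% with hormone. The signed distance, taken along the element, had medians of 1, -3 and 2 bp in the vehicle libraries, and in the hormone libraries of 3, 2.5 and 3 bp (exact two-sided permutation p = 0.1). Both measures thus separated the groups without overlap, at a p-value that this design cannot go below. The peak width also separated the groups, since vehicle lists had peaks of 255, 261 and 281 bp and hormone lists peaks of 285, 289 and 283 bp. So did the share of tags in peaks, with 2.58%, 4.81% and 8.10% against 11.86%, 15.89% and 18.96%. The part of these in the distance cannot be told apart from the treatment.

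The peak files give no height per peak, so the position in each deposited list was used as a rough order. A list percentile is 100 for the first peak of a list and 0 for the last, and which measure the authors' software sorted on is not stated. The lists were of unequal length, with 8756, 14888 and 48425 peaks with vehicle and 25510, 30390 and 41722 with hormone. Presence and list position come from the same lists that chose the regions, so they are described and not tested.

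The constitutive regions stood in the upper part of every list. Their median list percentile was 68.5, 76.1 and 92.2 in vehicle libraries 1, 2 and 3 and 87.4, 89.2 and 91.8 in hormone libraries 1, 2 and 3. Vehicle 1 and 2, the libraries with the shortest lists, were lowest, and vehicle 3 was highest of all. The range within a library was wide, from under 12 to over 99.9 in each. Hormone-only regions at the same distance had medians of 45.2, 43.5 and 57.4 in the hormone libraries, and constitutive regions within 1 kb of a start had 91.4, 91.8 and 94.6.

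**Figure D4:**
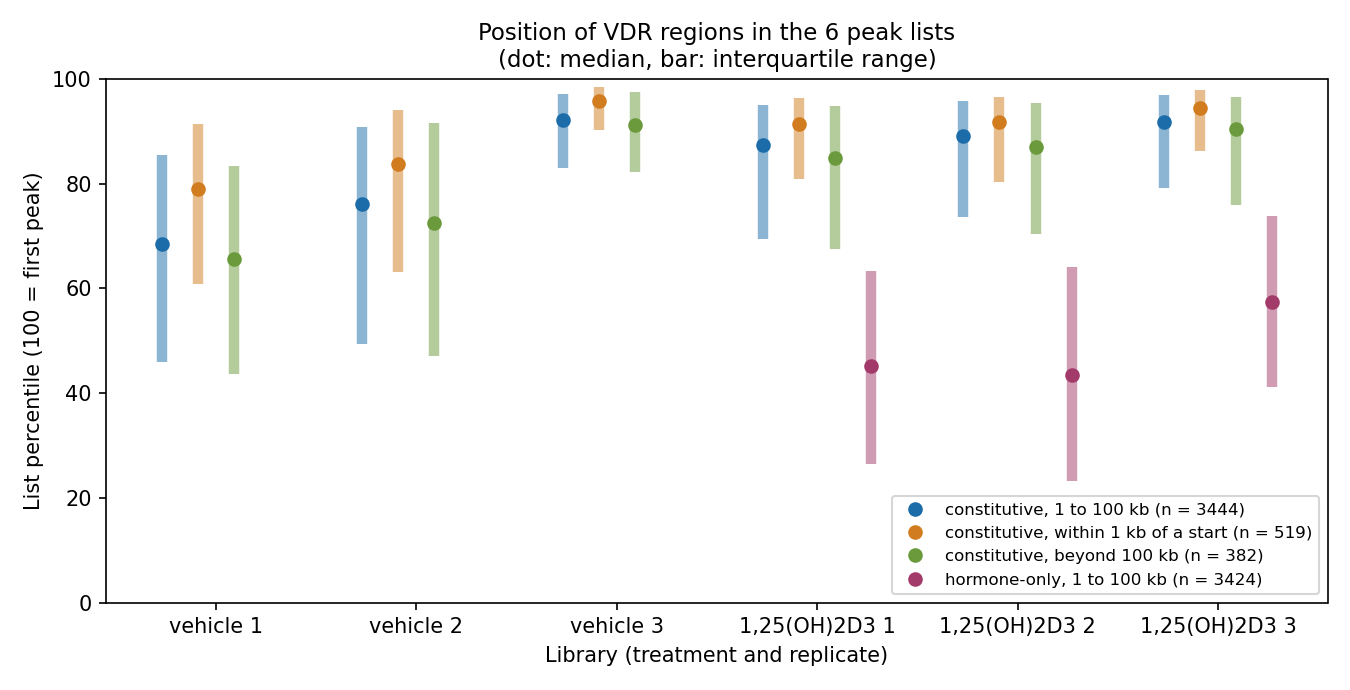
List percentile (vertical axis, 100 for the first peak of a list) of 4 classes of region in each library (horizontal axis). Dots are medians and bars run from the lower to the upper quartile. The constitutive regions at 1 to 100 kb have medians from 68.5 to 92.2, and hormone-only regions from 43.5 to 57.4 in the 3 lists that hold them.

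The order of the 3444 regions was most alike among hormone libraries. Spearman correlations across regions were 0.915 to 0.937 in the 3 pairs of hormone libraries, 0.845 to 0.873 in the 3 pairs of vehicle libraries and 0.774 to 0.845 in the 9 mixed pairs. All libraries share the input, and regions are not independent replicates, so these values are descriptive.

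The regions that stood first mostly held a DR3. Of the 12 highest by mean list percentile, 11 held an element, as did 36 of the first 50 (72.0%, 58.3 to 82.5), 63 of the first 100 (63.0%, 53.2 to 71.8) and 220 of the first 500 (44.0%, 39.7 to 48.4). With the regions cut into 4 equal parts by mean list percentile, from lowest to highest, the share was 25.9%, 26.7%, 23.0% and 36.8%. The intervals of the lower 3 parts overlapped. Full matches had another order, with 6.85% (5.35 to 8.74), 5.92% (4.53 to 7.705), 3.48% (2.45 to 4.93) and 6.62% (5.145 to 8.48) from the lowest part to the highest, so the lowest part was as high as the highest.

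The first region of all belonged to Slc30a10, a manganese exporter gene, 47.9 kb past its start, at chr1:187326482-187326788 between genes. Its list percentile was 99.95, 99.98 and 99.99 with vehicle and 99.99, 99.99 and 99.998 with hormone, so it was at the very top of all 6 lists. Slc30a10 was the nearest gene of 5 constitutive regions. The one at 61.2 kb downstream stood at 99.71 in the mean, that at 54.3 kb at 99.00, that at 29.0 kb at 94.78 and that at 4.41 kb upstream at 94.38. The region 29.0 kb downstream of Slc30a10 was at 72.93, 98.60 and 98.59 with vehicle and 99.55, 99.40 and 99.58 with hormone, with vehicle 1 well below the rest.

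Also among the 12 was a region in the first intron of Slc37a2, a sugar-phosphate transporter (8.94 kb from the start, mean 99.95). Others were regions 1.18 kb upstream of Tlcd2 (99.88), 2.26 kb upstream of Ppard, a nuclear receptor of fatty acid metabolism (99.87), in the first intron of the lipid kinase gene Pip5k1b (99.87) and 2.77 kb upstream of the intestinal alkaline phosphatase gene Akp3 (99.86). The Ppard region was the only one of the 12 without an element, its best match having 2 mismatches. In these regions every library had a percentile above 99.3. Further ones were nearest to Etnk1, Gm7589, Asap1, Bcas1 and Myo19, with means from 99.82 to 99.85.

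At the other end, the 4 lowest regions had means from 17.8 to 18.7 and were nearest to 1700034I23Rik, Gal3st2, Strap and Gm8597. The Strap region, 26.0 kb upstream, was at 15.2, 5.36 and 12.9 with vehicle and 21.2, 26.0 and 26.5 with hormone. None of the 4 held a DR3 with at most 1 mismatch.

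To follow how regions moved between treatments, each list was ranked over the 4345 constitutive regions alone. In 563 of the 3444 regions (16.3%) all 3 hormone positions were above all 3 vehicle positions, against 15.7% of all constitutive regions, and in 547 (15.9%) all were below, against 17% of all constitutive regions. Both shares were near those of all constitutive regions, but the 3444 regions make up 79.3% of these, so closeness is largely built in. Regions within 1 kb of a start were below more often than above, in 25.2% and 12.9%. Those beyond 100 kb were below in 15.7% and above in 13.9%.

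The element differed between these groups. A DR3 was found in 38.5% (34.6 to 42.6) of the 563 regions that stood higher with hormone, in 27.9% (26.1 to 29.8) of the 2334 whose positions overlapped, and in 18.3% (15.3 to 21.7) of the 547 that stood lower. The 3 intervals do not overlap each other. A full match was in 8.35% (6.34 to 10.9), 5.44% (4.59 to 6.44) and 4.205% (2.82 to 6.23) in the same order, with intervals that overlap between neighbouring groups. The median list percentile of the higher group was 73.5 over the vehicle libraries and 94.3 over the hormone libraries, and that of the lower group 84.9 and 82.6. Averaged over all 6 libraries the medians were 83.7 and 83.8. When any 1 library was left out, the shares ranged from 35.2% to 38.7% for the higher group and from 16.8% to 21.3% for the lower group. The 9 other motifs described below were compared in the same way after these values were seen. GATA was in 20.8% (17.6 to 24.3) of the higher and 28.5% (24.9 to 32.4) of the lower group, and CDX in 11.55% (9.16 to 14.45) and 17.2% (14.25 to 20.6), the intervals of GATA being apart and those of CDX overlapping. The intervals of the other 7 motifs overlapped, among them HNF4 at 8.70% and 11.5% and AP-1 at 13.5% and 13.35%.

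The largest rise in mean list percentile was in the region 11.4 kb upstream of Spns3, a lipid transporter family gene. It stood at 2.79, 0.62 and 29.1 with vehicle and at 91.7, 92.3 and 88.9 with hormone, so the groups did not overlap. The list percentile of the 3444 regions also shifted, with medians of 68.5, 76.1 and 92.2 with vehicle and 87.4, 89.2 and 91.8 with hormone. Ranked over these regions alone (100 for the first), the mean position of the Spns3 region was 0.33 with vehicle and 54.7 with hormone. The region 30.0 kb upstream of Pds5a, a cohesin regulator, was at 13.2, 25.8 and 65.1 with vehicle and 88.2, 84.9 and 88.6 with hormone, and it held a full DR3 match. The regions nearest to Pigyl and Mbnl2 completed the 4 largest rises, and neither held an element.

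The largest falls were near Stag1 (a cohesin subunit), Man1a2 (a mannosidase), Lyrm1 and Dscr3. The Stag1 region, in the first intron 14.6 kb from the start, was at 40.1, 59.2 and 90.6 with vehicle and 17.7, 21.3 and 40.6 with hormone. None of these 4 regions held a DR3 with at most 1 mismatch. These 8 regions were picked as the extremes of the lists, so their values are a description.

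Other motifs were searched in the same windows. The motif AGATAA, read by the GATA factors of the intestinal epithelium, was in 26.6% (25.1 to 28.1) of the constitutive regions, 18.5% (17.3 to 19.9) of hormone-only regions and 11.9% (10.9 to 13.0) of the windows 5 kb to the right. HNF4 (CAAAGTC), the motif of a receptor of enterocytes and liver cells, was in 11.4%, 9.20% and 3.46%. AP-1 (TGANTCA), the motif of Fos and Jun proteins, was in 14.4%, 12.4% and 6.31%. CDX (TTTATNG), read by the intestinal homeobox factors, was in 15.1%, 13.1% and 10.8%. The intervals of GATA and HNF4 (10.4 to 12.6 against 8.28 to 10.2) stood clear of those of hormone-only regions, and those of AP-1 and CDX overlapped them.

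The other 5 motifs gave the following shares against the windows beside the regions. KLF (CCNCNCCC) was in 21.7% against 17.03%, ETS (CCGGAA) in 3.02% against 1.95%, FOX (TGTTTAC) in 3.60% against 2.53%, and CTCF (AGGGGGC) in 2.24% against 2.56%. The HNF1 motif was found in 12 regions and in none of 3441 windows. The HNF4 letters overlap the half-site pattern in part, and AP-1 can share its last bases with a half-site. HNF4 was in 7.65% (6.13 to 9.49) of regions with a DR3 and 12.9% (11.7 to 14.3) of regions without one, while AP-1 was in 14.3% and 14.5% and GATA in 25.2% and 27.1%. The median GC content of the regions was 47.3%, close to the 47.8% of hormone-only regions, and 45.3% in the windows beside them.

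As a check that did not start from a list of factors, all hexamers found in at least 5% of the constitutive regions (1411, each counted with its reverse complement) were ranked by their share over that of the windows 5 kb to the right. This ranking was added after the other values were seen. GGTTCA came first, in 26.6% against 8.98%, and CTTATC, part of the GATA motif, second, in 18.3% against 6.45%. AGGTCA (36.0% against 14.4%) and AGTTCA (36.4% against 14.6%) took places 4 and 5. In the regions without a DR3 element, CTTATC was in 18.5%, AGTTCA in 34.5% and AGTCCA, which shares bases with the HNF4 motif, in 24.6% against 10.1%. Half-sites thus remained frequent where no DR3 was found.

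By location, 1683 regions (48.9%) lay between genes, 810 (23.5%) in a first intron, 860 (25.0%) in a later intron and 91 (2.64%) in an exon. Introns of either kind held 48.5% (46.8 to 50.2), against 47.3% (45.6 to 49.0) of the positions 5 kb to the right and 50.7% (49.1 to 52.4) of hormone-only regions. The distance to the nearest start had a median of 15.3 kb, with quartiles at 6.31 and 33.1 kb. Upstream and downstream positions were nearly equal, with 49.0% upstream. Of the 1761 regions inside a gene, 235 (13.3%) were nearer to the start of another gene.

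Just inside the lower distance limit were regions 1001 bp from 4932442E05Rik and 1008 bp from Pabpc1, and just outside it regions 994 bp from Gadd45g and 995 bp from Taar9. At the upper limit, regions near Slc25a26 (99750 bp) and Pdk4 (99862 bp) were inside, and regions near Klf5 (100576 bp) and Chn2 (100617 bp) outside. For presence, 3233 regions at 1 to 100 kb were found in 5 of the 6 libraries, and 2015 of them lacked only vehicle 1, the shortest list. The 3233 regions had a median mean percentile of 68.1 over the 5 libraries that held them, against 83.2 over all 6 in the constitutive regions.

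Other VDR regions were often close by. Another constitutive region at 1 to 100 kb was within 10 kb of 16.1% (14.95 to 17.4) of them, and of 10.9% (9.87 to 11.95) of hormone-only regions. A hormone-only region was within 10 kb of 12.8% (11.7 to 14.0) of constitutive and 14.1% (13.0 to 15.3) of hormone-only regions. For all merged regions at that distance the shares were 7.58% and 9.09%.

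Of 22350 protein-coding genes, 2506 (11.2%) were the nearest gene of at least 1 constitutive region at 1 to 100 kb, and 651 of at least 2. Slc34a2 had the most, with 7. Genes with 6 were Bcas1, Areg, Kalrn, Klf3, Bcar3, Tob1 and Ezr. The members around Areg, an epidermal growth factor receptor ligand, had means from 62.7 to 99.7, and those around Kalrn, a guanine nucleotide exchange factor, from 76.3 to 99.6.

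Slc34a2 encodes a sodium-dependent phosphate transporter. Its highest region, in the first intron 4.92 kb from a start at chr5:53434074-53434414, stood at 96.9, 98.1 and 99.6 with vehicle and 99.1, 99.3 and 98.9 with hormone, with vehicle 3 the highest of all. Another region, also in the first intron, lay 7.40 kb downstream of the outermost start and 3.87 kb upstream of the nearest of its starts. This region was at 79.9, 66.1 and 93.8 with vehicle and 96.8, 98.0 and 99.2 with hormone. All its hormone positions were thus above all its vehicle positions. Of the 7 regions of Slc34a2, 2 held a DR3, and the lowest mean was 79.3.

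**Figure D5:**
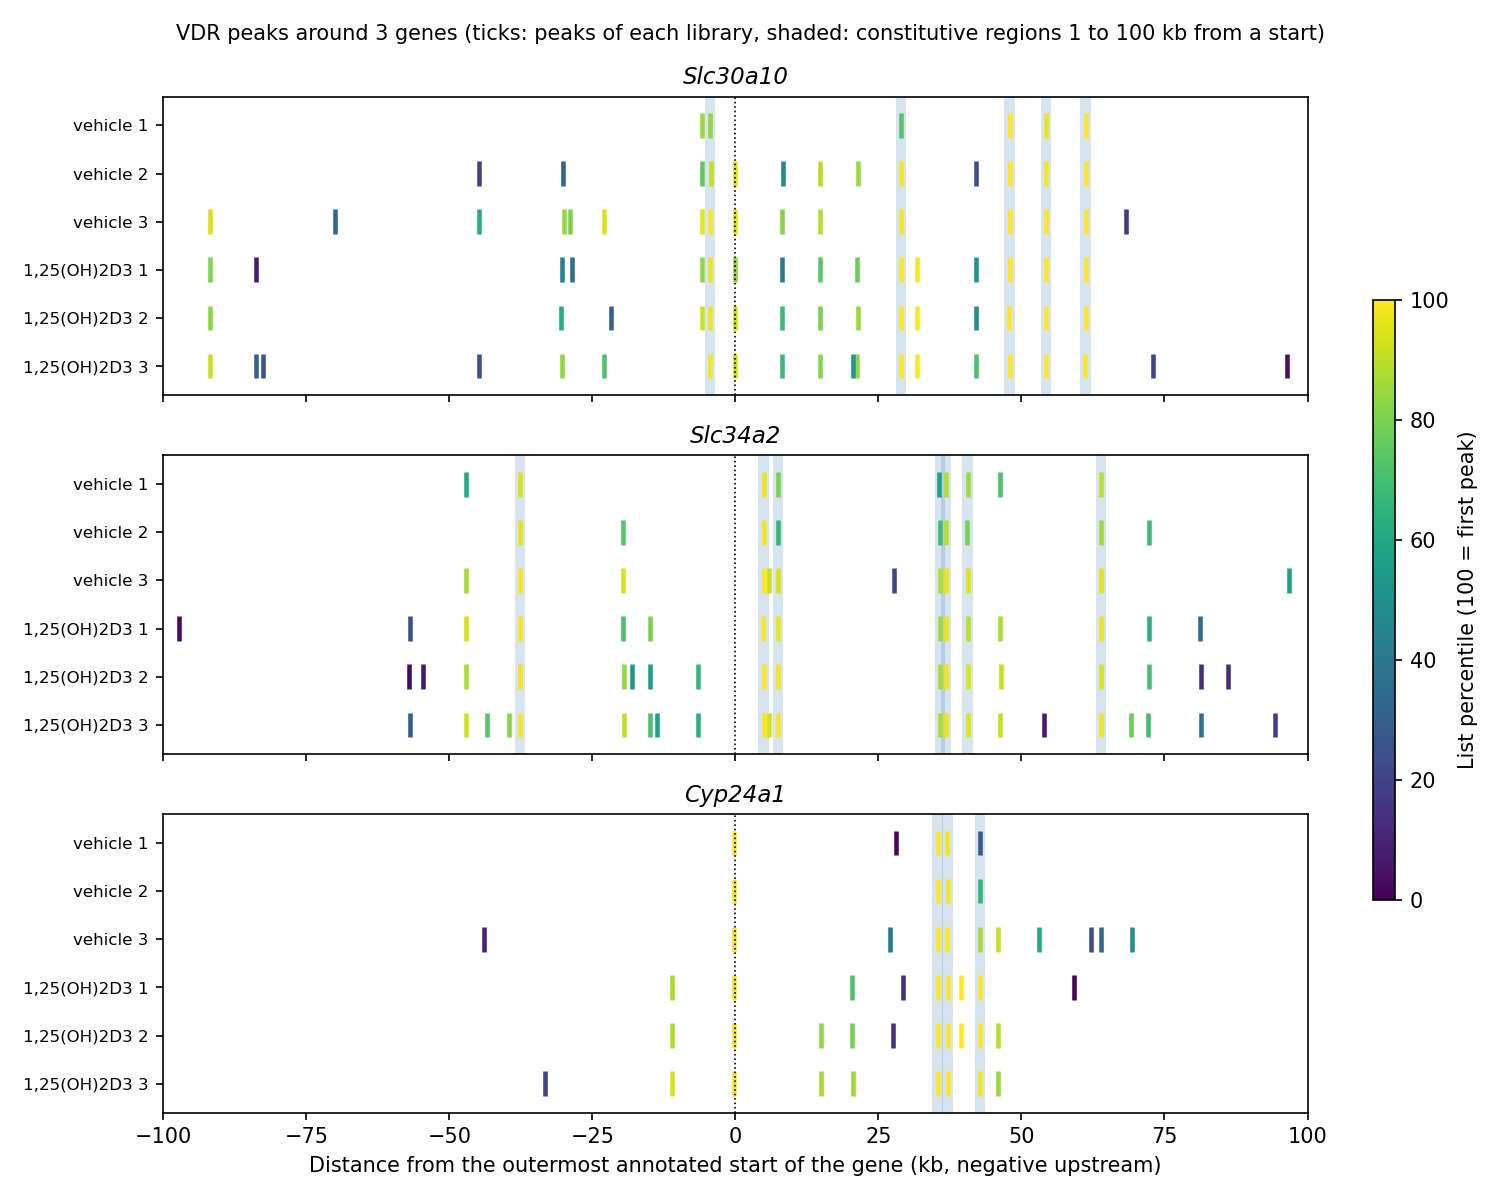
VDR peaks of each library (rows) within 100 kb of the outermost annotated start of Slc30a10, Slc34a2 and Cyp24a1 (kb, horizontal axis, negative upstream). Ticks are peaks coloured by list percentile, and shaded bands are constitutive regions 1 to 100 kb from the nearest start of any protein-coding gene. Bands 47.9 kb downstream of Slc30a10 and 35.3 kb downstream of Cyp24a1 have mean list percentiles of 99.98 and 99.83.

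Cyp24a1, the vitamin D 24-hydroxylase, was not the nearest gene of any constitutive region at 1 to 100 kb, since the 3 such regions downstream of it were nearer to a start of Bcas1. They lay 35.3, 37.1 and 42.8 kb downstream of the outermost Cyp24a1 start, and each held a DR3 with 1 mismatch. The first was at 99.34, 99.75 and 99.93 with vehicle and 99.98, 99.99 and 99.99 with hormone. The last was at 28.5, 66.3 and 86.4 with vehicle and 99.6, 99.7 and 98.8 with hormone. In all 3 regions every hormone position was above every vehicle position.

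Of 15 gene lists with 207 genes found, 75 genes (36.2%) were the nearest gene of a constitutive region, against 11.2% of all protein-coding genes. Counting every gene with a start within 100 kb of such a region, 119 of the 207 genes qualified, beside 7628 of 22350 protein-coding genes (34.1%). The lists hold genes of intestinal function and markers of immune, stromal, muscle and neuron cells, chosen with earlier results known. No account was taken of gene density, so the counts are descriptive. In the calcium transport list 5 of 15 genes had a region, with 7 regions and 4 elements, among them Trpv6, Atp2b1, Cldn2 and Calm2. The region 1.93 kb upstream of Trpv6, the calcium channel of the brush border, was at 83.8, 92.6 and 87.1 with vehicle and 77.6, 91.0 and 89.95 with hormone, with overlapping groups.

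Both regions of Atp2b1, a plasma membrane calcium pump, were upstream, at 17.1 and 34.8 kb, with means of 96.4 and 95.9. The region 6.30 kb upstream of Cldn2, a paracellular cation channel, was at 18.5, 31.0 and 87.5 with vehicle and 85.1, 89.5 and 95.8 with hormone, so hormone 1 lay below vehicle 3 in list percentile. Ranked over the constitutive regions alone, its hormone positions were all above its vehicle positions. Calm2, a calmodulin gene, had regions 73.0 and 47.5 kb upstream, with means of 98.9 and 59.2. S100g, the intestinal calcium-binding protein calbindin-D9k, and Trpv5 were among the 10 genes of the list that were the nearest gene of none. The start of Trpv5 lay 42.4 kb from the Trpv6 region. Counting any start within 100 kb of a region, 8 genes of the list qualified, beside 34.1% of all protein-coding genes.

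In the vitamin D list 5 of 12 genes had a region, with 9 regions and 3 elements. The region in the first intron of Vdr, 4.64 kb from the start, was at 83.9, 88.8 and 98.4 with vehicle and 98.9, 99.3 and 99.2 with hormone, and the one 19.2 kb upstream was at 64.7, 64.2 and 97.3 with vehicle and 99.1, 98.7 and 99.4 with hormone. In both regions of Vdr all hormone positions were above all vehicle positions. Regions of Rxra, which encodes a VDR partner, had means of 92.6 and 72.5, and those of Cubn, an endocytic receptor that takes up the vitamin D binding protein, 98.4 and 88.3. The region 35.3 kb upstream of Kl, the gene of the co-receptor klotho, had a mean of 99.71 with a full match, while the one 58.4 kb upstream stood at 26.4. A region 76.1 kb from Gc, the vitamin D binding protein, had a mean of 94.8. Of the 9 regions 2 ranked above and 5 below, beside 15.7% and 17% of all constitutive regions, and the number is too small to set the list apart.

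Genes of phosphate and metal transport had regions for 10 of 22, with 22 regions and 7 elements, among them Slc30a5 (a zinc transporter, mean 97.3), Slc40a1 (the iron exporter ferroportin, 84.5) and Trpm6 (a magnesium channel, 82.7 and 65.5). Bile acid and xenobiotic genes had them for 9 of 19, with 15 regions and 3 elements. They included the bile acid receptor gene Nr1h4 (98.8, 9.62 kb from a start), the exporter gene Abcc2 (98.2) and the pregnane X receptor gene Nr1i2 (97.5). Fat absorption genes had them for 11 of 16, with 14 regions and 3 elements. Mttp, which loads lipid onto apolipoprotein B, had a region at 99.3 and Mogat2, an acyltransferase of triglyceride synthesis, at 99.1.

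The list of sugar, peptide and brush border genes had the largest share, with 12 of 14 genes and 24 regions, and 1 of these 24 regions held a DR3 (4.17%, 0.739 to 20.2), beside 28.1% of all 3444. The 1 region was near Treh, the trehalase gene. The 4 regions of Slc5a1, the sodium-glucose transporter, had means of 97.8, 96.3, 95.9 and 88.9 and no element. The highest of them, 27.3 kb upstream of Slc5a1, was at 93.8, 98.4 and 99.0 with vehicle and 98.4, 98.9 and 98.2 with hormone. The median of the mean percentile was 90.5 in this list, against 83.2 over all members. GATA was in 7 of the 24 regions (29.2%, 14.9 to 49.2), close to the 26.6% of all members. In the order between treatments 1 ranked above and 5 below, beside 15.7% and 17% of all constitutive regions.

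Transcription factor genes of the intestine had regions for 6 of 16, with 10 regions and 2 elements. Gata4 had a region with a mean of 97.7, and Elf3 and Creb3l3 had 96.8 and 94.96. Tight junction and adhesion genes had them for 4 of 14, with Cdh17, an intestinal cadherin, at 97.8. Immediate early genes had them for 4 of 12, with 7 regions and 5 elements, of which the highest was 43.8 kb upstream of Fos (96.4). Crypt and cell cycle genes had them for 2 of 13 (15.4%, Tcf7l2 and Sox9), and all 3 of their regions held an element (43.85 to 100). For the 5 of 7 regions near immediate early genes the interval was 35.9 to 91.8. These counts are small, and are read beside 11.2% of all protein-coding genes and an element in 28.1% of all 3444 regions.

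Lists of markers of other cell types are read beside the 11.2% of all protein-coding genes. Goblet and Paneth cell genes had regions for 2 of 11 (18.2%, Xbp1 and Atoh1), enteroendocrine and tuft cell genes for 2 of 11 (Cck and Sct), stromal and muscle genes for 2 of 11 (Col1a1 and Cdh5), neuron genes for 1 of 10 (Tubb3) and immune genes for 0 of 11. The highest Cck region lay 59.0 kb from its start, in an intron of Trak1. The Sct region lay 1.03 kb from the start of Sct and 1.3 kb from that of Cdhr5, so the nearest gene is a label here too. The regions near these lists had mean percentiles from 43.7 to 97.6. These counts moved when any start within 100 kb of a region was counted. Goblet and Paneth cell genes then had 5, enteroendocrine and tuft cell genes 5 and stromal and muscle genes 6. Immune genes had 3 and neuron genes 2, beside 34.1% of all protein-coding genes. The share of RNA or DNA from such cells in the libraries was not tested.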

How the data were processed

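VDR ChIP-seq was measured in 3 vehicle and 3 1,25(OH)2D3 libraries, grouped by the treatment in their titles. The input library has no file analysed here. Per the submitters' processing notes, the authors used Bowtie, HOMER and build mm9, and no versions are given in the sources used here. Peak calling ran on single libraries with the one input, per the file headers, under a false discovery limit of 0.001 and with at least 4-fold more tags than the input and than the surrounding 10 kb. The deposited files hold the start and end of each peak, and a deposited score column that is 1 for every peak and ranks nothing. The libraries held 15991198 to 68560701 tags, per the file headers, and replicate 3 of each group was the deepest. List position therefore depends on depth and on the number of peaks.

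Peaks were merged where they overlapped by at least 1 bp, on chromosomes 1 to 19 and X. GENCODE mouse version 1 (Ensembl 65, NCBI build 37, the same as mm9) gave the starts of all transcripts of 22350 protein-coding genes. The element search was tested on simulated sequence with planted elements. Windows holding undetermined bases were left out, so 3441 of the 3444 windows 5 kb to the right were used. Groups were compared by an exact two-sided permutation of libraries. Python 3.11.15, numpy 2.4.6, pandas 2.3.3 and scipy 1.17.1 were used.

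The members, the gene lists and the tests were chosen with earlier results of these data known. The text names the 12 highest and 4 lowest members by mean list percentile, the 6 highest with a full DR3 match, the 6 genes with the most members, all members near calcium and vitamin D genes, up to 3 genes of every other list, the 4 largest rises and the 4 largest falls, and the 2 regions on each side of the distance limits. Other regions of Slc30a10, Slc34a2 and Slc5a1, and the genes Slc40a1, Trpm6, Treh, Tob1 and Ezr, were named after their values were seen. A few regions taken by this rule are not reported here. Alternatives covered the way peaks are joined, lists of equal length, the annotated starts, the number of mismatches, the window, the replicate block and leaving out each library. Leaving out both replicates 3, the restriction to single-copy sequence, the hexamer ranking and the motif shares by order and by gene list were added after the data were seen.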

Additional observations from a re-analysis of the deposited data

How the results depend on the processing

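The number of constitutive regions at 1 to 100 kb was 3444 and ranged from 3460 to 5456 when 1 library was left out, with 5456 without vehicle 1, the shortest list, and it was 2178 with all lists reduced to their first 8756 peaks. The DR3 share of 28.1% was 30.1% with the lists of equal length, ranged from 24.2% to 28.2% when 1 library was left out, and was 26.5% without both replicates 3, an alternative added after the data were seen. It was 5.72% with 0 mismatches, 71.4% with at most 2 mismatches (37.6% in the windows 5 kb to the right), 20.1% within 50 bp of the centre (2.41% in those windows) and 34.4% within 200 bp (9.04%). Counting any gene with a start within 100 kb of a region raised the genes of the lists from 75 to 119 of 207. The share of all protein-coding genes rose from 11.2% to 34.1%. The DR3 shares of the regions standing higher and lower with hormone ranged from 35.2% to 38.7% and from 16.8% to 21.3% when 1 library was left out.

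The difference in the distance from peak centre to element was -4.33 bp with 0 mismatches and -8.16 bp for the mean in place of the median, and ranged from -6.67 to -4.5 bp when 1 library was left out. With the replicate number as a block it was -5.67 bp (exact permutation p = 0.25, the smallest that 3 pairs allow). Whether the replicate numbers pair the samples is not stated in the labels. The deviations of same-numbered libraries correlated at -0.006, 0.145 and 0.277, not all above 0.1, and so few values cannot settle it. Vehicle 2 and 3 correlated best with the hormone library of their own number, and vehicle 1 with hormone 2. The difference in absolute distance stayed negative under these alternatives, which are not given for the signed distance along the element. The hormone-only comparison, the spacing, the other motifs and the hexamers were not recomputed under them. The list order is not a measured occupancy, the design cannot reach a p-value below 0.1, and no input from vehicle mice was used.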
